A study of Homo sapiens with 13 samples.

Results

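The genes described here are the subunits of the transcription factor NF-kB, its inhibitors and a set of its well-known target genes, in SW480 cells treated with iron chelators. The members are 33 named genes, and each was represented by the transcript cluster (the unit of the array that stands for 1 transcribed region) with the highest mean signal. Of the 33, 31 were measured among the 18404 genes of the table. The cluster of SDC4 also carried the symbol of another gene and BIRC3 was not among the named clusters, so neither is given a value.

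SW480 is an established human colon cancer line. The cells had been kept for 6 h in 0.1% DMSO, the solvent (n = 4), in 100 mM DFO (n = 4), in 50 mM Deferasirox (n = 3) or in 10 mM OICR623 (n = 2), and their RNA was hybridised to Affymetrix Human Gene 1.0 ST arrays. DFO (deferoxamine) and Deferasirox are drugs that bind iron and are given against iron overload. OICR623 has no other name in the labels. The dose units are as the labels give them, are very high for cells in culture and could not be checked. The doses differed between the compounds, and the series text calls the replicates independent experiments.

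NF-kB proteins bind DNA as dimers of the subunits NFKB1 (p50), NFKB2 (p52), RELA, RELB and REL. In resting cells the inhibitors of the IkB family hold the dimers in the cytoplasm. Signals from cytokine or microbial receptors lead to the decay of the inhibitor, after which the dimers enter the nucleus and switch on genes for chemokines, adhesion molecules, survival factors and the inhibitors themselves, which closes a feedback loop. In colon epithelium the pathway is known for its part in inflammation and in tumour growth.

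The promoters of the genes that differed in a comparison are shown first, because many NF-kB target genes carry a binding site close to their start. Each line gives 120 bases upstream of an annotated start from RefSeq (GRCh38.p14), 5′ to 3′ on the strand of the gene. Matches to the kappaB consensus or to GGANNTTCC are in capitals. Of several listed starts the one with the most kappaB matches was taken, and the stretch was placed around a match. A match in each line was therefore set by this choice. The other listed starts of TNIP1 and NFKB1 held 0 matches. The outermost start of NFKB2 held 0 as well, while its innermost held 2 of the consensus. The promoter of NFKBIA, an inhibitor with a textbook NF-kB site, is shown beside them as a member that was not called in any comparison.
TNIP1: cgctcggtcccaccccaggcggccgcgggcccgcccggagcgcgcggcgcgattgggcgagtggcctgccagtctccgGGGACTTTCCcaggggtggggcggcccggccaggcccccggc
IRF1: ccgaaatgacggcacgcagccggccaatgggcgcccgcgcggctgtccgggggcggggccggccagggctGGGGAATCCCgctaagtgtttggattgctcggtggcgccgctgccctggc
ICAM1: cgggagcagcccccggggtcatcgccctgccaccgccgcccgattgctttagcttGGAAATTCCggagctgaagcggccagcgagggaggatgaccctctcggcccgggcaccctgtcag
NFKB1: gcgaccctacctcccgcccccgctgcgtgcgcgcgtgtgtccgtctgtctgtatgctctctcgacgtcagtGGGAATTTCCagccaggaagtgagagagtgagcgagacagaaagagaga
NFKB2: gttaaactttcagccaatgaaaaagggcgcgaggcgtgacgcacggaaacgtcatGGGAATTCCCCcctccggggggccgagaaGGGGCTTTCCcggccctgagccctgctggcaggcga
NFKBIA: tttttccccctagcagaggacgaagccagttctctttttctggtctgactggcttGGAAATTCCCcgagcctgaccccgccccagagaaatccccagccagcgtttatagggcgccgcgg
The TNIP1 stretch lies on chr5:151081035-151081154 (minus strand) and its match ends 33 bases before the start. The IRF1 stretch lies on chr5:132490774-132490893 (minus strand), with the match ending 41 bases before the start. For ICAM1, on chr19:10270879-10270998 (plus strand), the capitals mark a match to GGANNTTCC alone, which ends 178 bases before the start. The NFKB1 stretch is chr4:102501239-102501358 (plus strand) and its match ends 40 bases before the start. The NFKB2 stretch, chr10:102394416-102394535 (plus strand), holds 3 kappaB matches, of which 2 overlap, and they end between 98 and 69 bases before the start. The NFKBIA stretch is chr14:35404766-35404885 (minus strand), with its match ending 72 bases before the start. The starts shown for TNIP1 and NFKB2 are internal ones, so these stretches lie inside the annotated genes; the other stretches lie upstream of theirs.

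The kappaB consensus, searched on both strands in the 250 bases before each start, was present in 23 of the 49 listed promoters of the members (46.9%) and in 3498 of 35116 promoters in all (9.96%). By gene, 20 of 30 members with a listed promoter held a match in at least 1 of them. The share by gene was not counted over all genes, and genes with several promoters have more chances of a match. The members were listed as NF-kB genes and its well-known targets, so their higher share is not read as a result. GGANNTTCC, a related core chosen after the promoters had been read and partly overlapping the consensus, was found in 36.7% of the members' promoters and 3.84% of all. ACGTG and GCGTG are forms of the core to which hypoxia-inducible factor binds, and they went in opposite directions. ACGTG was in 6.12% of the members' promoters against 18.5% of all, and GCGTG was in 40.8% against 32.2%. Of the 5 members called in a comparison with DMSO, 4 held the kappaB consensus. Of the 26 measured members that were not called, 23 had a listed promoter and 14 of these held it. RELB, NFKBIE and CCL2 had none in the table. A match in these letters describes the sequence and is not a measured binding site.

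The log2 signals of the arrays fell into 3 levels of their medians, which were not those of the treatments. DMSO 1 and DFO 1 formed the high level (medians 7.17 to 7.19), and DMSO 4, DFO 4 and Deferasirox 3 formed the low level (6.52 to 6.55). The other 8 arrays, 2 of each group, formed the middle level (6.64 to 6.69). The 2 high-level arrays also held identical values at 8530 of the 32321 transcript clusters (26.4%) and at 8 of the 31 members, whereas pairs of arrays of the middle and low levels shared 5 to 107 values and pairs across levels 0. Every difference below therefore comes from a limma fit that takes the level as a block, and each called member is also given without the 2 high-level arrays. A list of 6 genes known to respond to iron loss (DDIT4, VEGFA, NDRG1, ADM, EGLN3 and TFRC) rose in full with every compound, by 0.22 to 3.08 with DFO on the log2 scale. The mean signal of 12 markers of colon epithelium was 8.25 to 9.36 in the DMSO arrays. That of 11 leukocyte markers was 5.33 to 6.03 and that of 10 markers of fibroblasts and endothelium 5.56 to 6.05, with the defining leukocyte marker PTPRC at 3.05 to 3.97. EPCAM, a defining marker of epithelium, was at 9.16 to 10.75. Of the same list CDH1, likewise a marker of epithelium, was at 4.83 to 6.72, KRT20 at 4.87 to 6.18 and CEACAM5 at 4.67 to 5.37. By mean signal, 7 of these 12 markers lay above the median of all genes. In the treated groups the epithelial mean was 8.25 to 9.32 and the leukocyte mean 5.23 to 6.03, and the values carry no detection calls. In such bulk samples, fewer cells with a transcript and less of it per cell cannot be told apart.

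With DFO, 2 of the 31 measured members rose and 0 fell (6.45% called, against 4.6% of all genes). The genes that rose were TNIP1, an A20-binding protein that dampens NF-kB signalling, and IRF1, a transcription factor of the interferon response. With Deferasirox, 4 of 31 rose and 0 fell (12.9%, against 5.84% of all genes). These were TNIP1, the adhesion molecule ICAM1 and the subunit genes NFKB2 and NFKB1. With OICR623, limma called 0 of 31 (against 0.734% of all genes). At an unadjusted p under 0.05 there were 3 members, beside 1963 of all 18404 genes. Of all genes, 1.89% rose and 2.72% fell with DFO, 2.83% rose and 3% fell with Deferasirox, and 0.337% rose and 0.397% fell with OICR623. The members' shares rest on 2 and 4 genes and are not read here as a result about the group. The median difference of the members was 0.06 with DFO, 0.02 with Deferasirox and 0.06 with OICR623 on the log2 scale, beside 0.00 for all genes in each. The 3 comparisons share the DMSO arrays, so their results are not independent of each other. A fit without the block called 0 members for each compound, with 0 members at an unadjusted p under 0.05, where it called 45, 43 and 7 genes in all (0.245%, 0.234% and 0.038%). In that fit 202, 307 and 104 of all 18404 genes had an unadjusted p under 0.05. Within the middle level, the 2 treated and the 2 DMSO arrays did not overlap for 38.9%, 41.7% and 34.6% of all genes with DFO, Deferasirox and OICR623, so that a separation of these arrays alone is common.

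**Figure D1:**
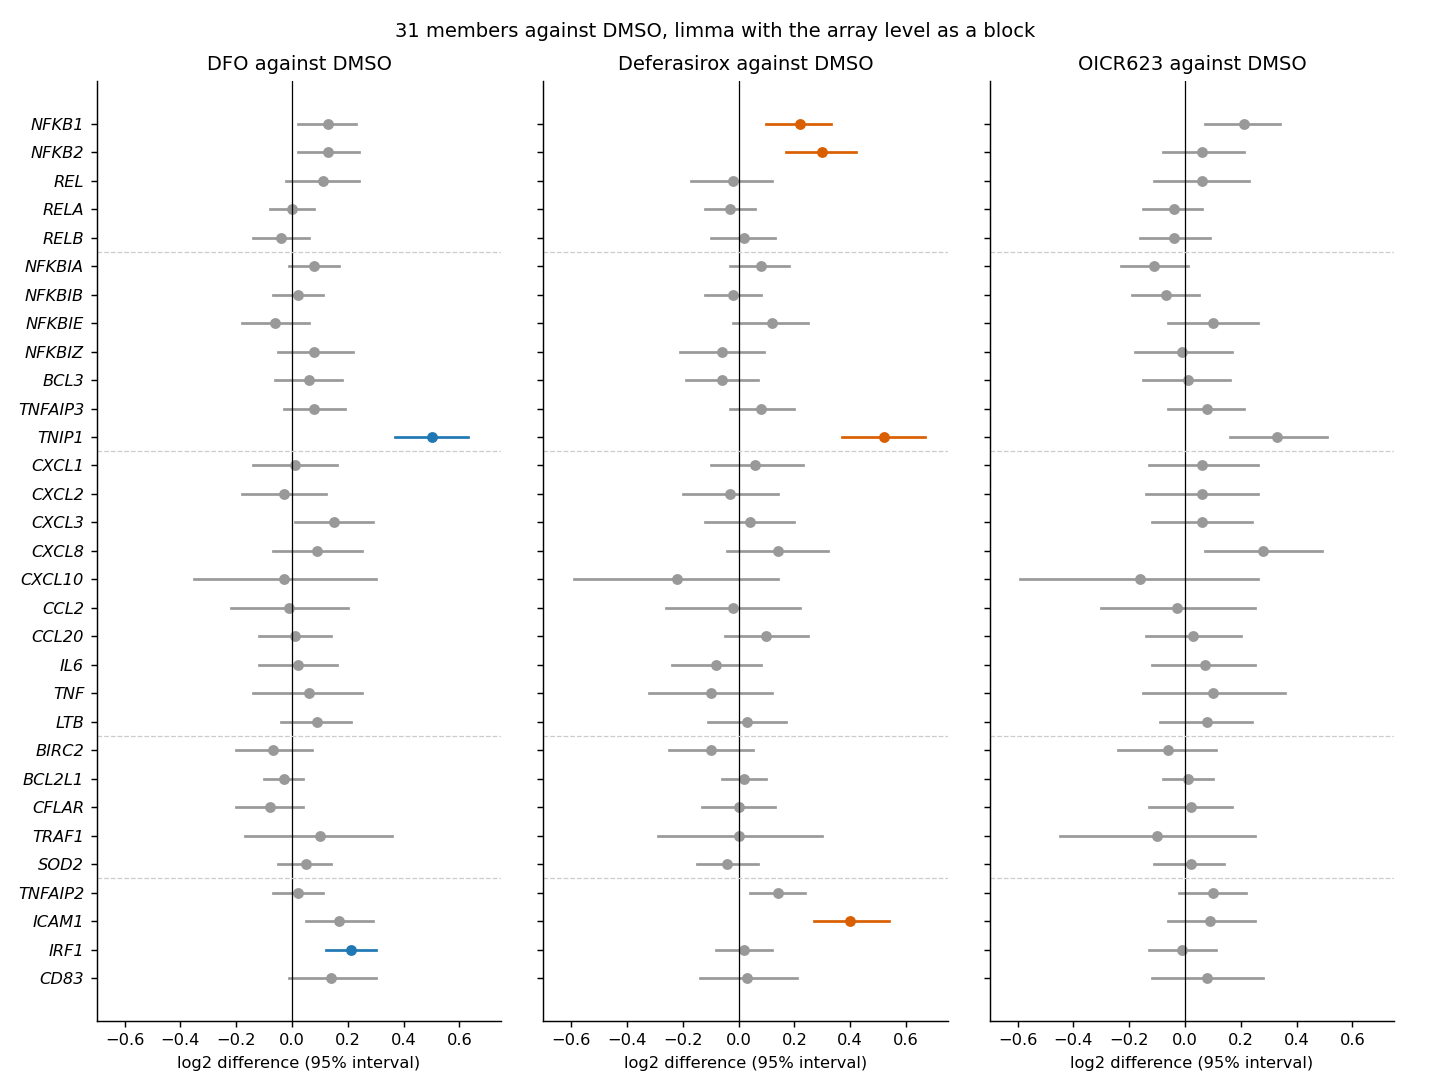
Log2 difference against DMSO of the 31 measured members (rows, grouped by role) for DFO, Deferasirox and OICR623, from limma with the array level as a block. Points are fitted differences, bars 95% intervals, and coloured points are those called at an adjusted p under 0.05. TNIP1 lies farthest to the right in each panel, at 0.50, 0.52 and 0.33.

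Among the inhibitors, TNIP1 (transcript cluster 8115210) had the largest difference of all members with each compound. Its log2 signal was 9.11, 8.17, 8.13 and 7.83 in DMSO 1 to 4 and 9.38, 8.72, 8.66 and 8.47 in DFO 1 to 4. It was 8.63, 8.73 and 8.44 in Deferasirox 1 to 3, and 8.44 and 8.57 in OICR623 1 and 2. Within each level every treated array stood above the DMSO arrays of that level, while DMSO 1, of the high level, stood above the treated arrays of the other levels. Against DMSO the TNIP1 signal rose by 0.50 (SE 0.06) with DFO, or 1.41-fold, and by 0.52 (SE 0.07) with Deferasirox, or 1.43-fold (limma, adjusted p = 0.00056 and 0.00097). With OICR623 the difference was 0.33 (SE 0.08, 95% interval 0.16 to 0.51, adjusted p = 0.10). Its DFO difference was 0.27 in the high level, 0.54 in the middle and 0.64 in the low level, and the Deferasirox difference was 0.53 in the middle and 0.62 in the low level. Without the 2 high-level arrays the TNIP1 difference was 0.57 with DFO (adjusted p = 0.00022), 0.56 with Deferasirox (0.00026) and 0.37 with OICR623 (0.027), so that OICR623 then passed the test. Leaving out DMSO 1 alone or DFO 1 alone gave this same fit, since the level block then takes up the other high-level array. The call was lost for DFO and Deferasirox with no block (adjusted p = 1 and 0.91) and with each array centred on its median (0.093 and 0.24). With the replicate number as a block in place of the level, the DFO value was 0.50 (adjusted p = 1) and the Deferasirox value 0.15 (0.56). The number joins Deferasirox 1 and 3 and OICR623 1 with arrays of other levels. A replicate block on the DFO and DMSO arrays alone, where equal numbers share a level, gave 0.50 (limma, adjusted p = 0.015). Over all alternatives the adjusted p of TNIP1 ran from 1.6e-05 to 1 with DFO, 3.6e-05 to 0.91 with Deferasirox and 0.025 to 1 with OICR623, and it passed the threshold in 23 of 26, 22 of 25 and 4 of 25 of them.

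**Figure D2:**
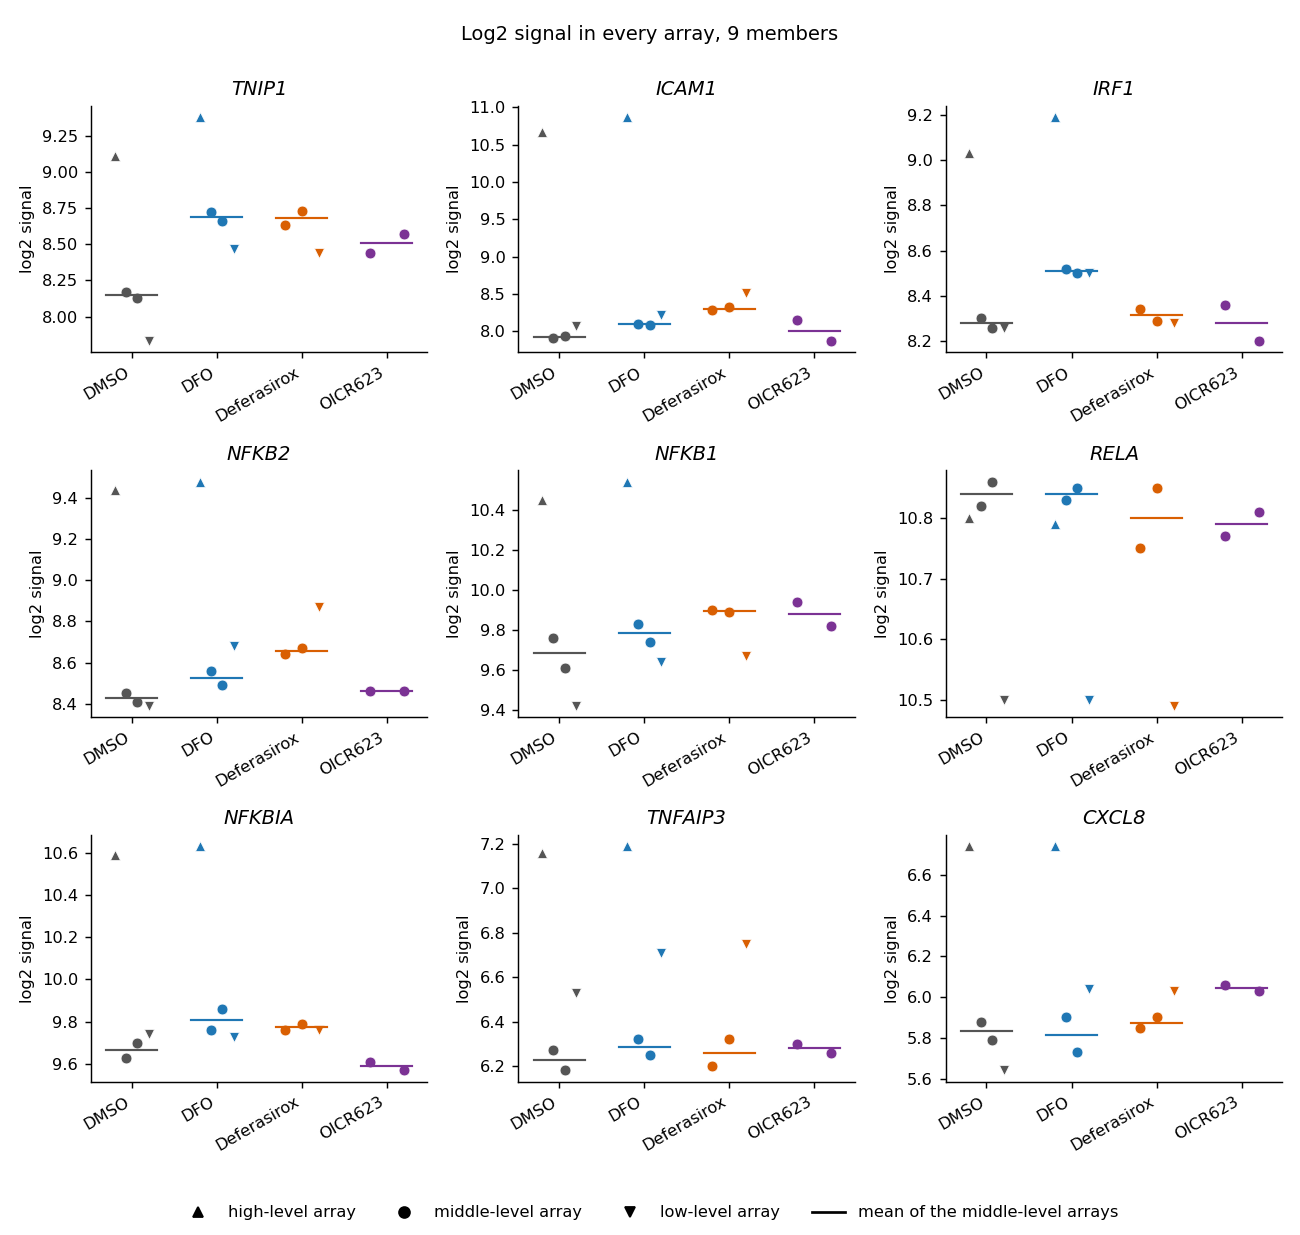
Log2 signal of 9 members in every array, by treatment (DMSO n = 4, DFO n = 4, Deferasirox n = 3, OICR623 n = 2). Symbols mark the level of the array and lines the mean of the 2 middle-level arrays of each group. The high-level arrays DMSO 1 and DFO 1 stand far above the rest for ICAM1, at 10.67 and 10.87, while the middle-level TNIP1 arrays of DFO, 8.72 and 8.66, lie clear of those of DMSO, 8.17 and 8.13.

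The other 6 inhibitors and regulators were not called with any compound. NFKBIA encodes IkB-alpha, the inhibitor that NF-kB itself induces. Its signal was 10.59, 9.63, 9.70 and 9.74 in the DMSO arrays, 10.63, 9.76, 9.86 and 9.73 in the DFO arrays, 9.76, 9.79 and 9.76 in the Deferasirox arrays and 9.61 and 9.57 in the OICR623 arrays. Both OICR623 arrays lay below all other arrays, while in the middle level those of DFO and Deferasirox stood above those of DMSO and in the low level beside it. The NFKBIA difference was 0.08 with DFO (95% interval -0.01 to 0.17), 0.08 with Deferasirox (-0.03 to 0.18) and -0.11 with OICR623 (-0.23 to 0.01). TNFAIP3 encodes A20, the ubiquitin-editing enzyme that TNIP1 binds. The TNFAIP3 signal was 7.16, 6.27, 6.18 and 6.53 in the DMSO arrays, 7.19, 6.32, 6.25 and 6.71 in the DFO arrays, 6.20, 6.32 and 6.75 in the Deferasirox arrays and 6.30 and 6.26 in the OICR623 arrays. The groups overlapped within the middle level. Its difference was 0.08 with each compound, with intervals of -0.03 to 0.19, -0.03 to 0.20 and -0.06 to 0.21. NFKBIB and NFKBIE, further IkB proteins, and BCL3 and NFKBIZ, IkB-like proteins that act in the nucleus, had differences of -0.07 to 0.12 over the 3 compounds. By mean signal, TNFAIP3 lay at percentile 34.9 of all genes and NFKBIZ at 23.8, and the other inhibitors at 58.2 or above. Without detection calls, no response of a dim gene cannot be told from no expression.

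Of the 5 subunit genes, NFKB1 and NFKB2 rose with Deferasirox, and RELA, RELB and REL were not called. NFKB1 (transcript cluster 8096635) encodes p105, the precursor of p50. Its signal was 10.45, 9.76, 9.61 and 9.42 in the DMSO arrays, 10.54, 9.83, 9.74 and 9.64 in the DFO arrays, 9.90, 9.89 and 9.67 in the Deferasirox arrays and 9.94 and 9.82 in the OICR623 arrays. Within the middle and low levels the Deferasirox arrays stood above those of DMSO, and in the middle level so did those of OICR623. The NFKB1 difference was 0.22 with Deferasirox (SE 0.05, limma, adjusted p = 0.036), or 1.16-fold, 0.13 with DFO (SE 0.05, adjusted p = 0.19) and 0.21 with OICR623 (SE 0.06, adjusted p = 0.21). The call was a narrow one: it was lost without the high-level arrays (0.22, adjusted p = 0.057) and when DMSO 1, 3 or 4, DFO 1 or 2, or any 1 of the Deferasirox arrays was left out (adjusted p = 0.053 to 0.16). With no block the NFKB1 difference was 0.01 (adjusted p = 0.99), with the replicate number in place of the level -0.10 (0.63) and with both blocks 0.13 (0.37). The threshold was passed in 8 of 25 alternatives, with an adjusted p from 0.0059 to 0.99.

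NFKB2 (transcript cluster 7930074) encodes p100, the precursor of p52 and the substrate of the non-canonical arm. Its signal was 9.44, 8.45, 8.41 and 8.39 in the DMSO arrays, 9.48, 8.56, 8.49 and 8.68 in the DFO arrays, 8.64, 8.67 and 8.87 in the Deferasirox arrays and 8.46 and 8.46 in the OICR623 arrays. All 3 Deferasirox arrays stood above the DMSO arrays of their level, whereas both OICR623 arrays lay next to them. The NFKB2 signal rose by 0.30 with Deferasirox (SE 0.06, limma, adjusted p = 0.0098), or 1.23-fold, and was 0.23 higher within the middle level and 0.48 higher within the low level. With DFO the difference was 0.13 (adjusted p = 0.21) and with OICR623 0.06 (0.81). Without the high-level arrays the Deferasirox difference was 0.31 (adjusted p = 0.013). The call was lost without Deferasirox 3 (0.24, adjusted p = 0.078), with no block (0.05, 0.95), with the replicate number in place of the level (-0.01, 0.97) and with both blocks (0.22, 0.22). Over its 25 alternatives the adjusted p ran from 0.0018 to 0.97, with the threshold passed in 16.

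RELA encodes p65, the main activating subunit. The RELA signal was 10.80, 10.82, 10.86 and 10.50 in the DMSO arrays, 10.79, 10.83, 10.85 and 10.50 in the DFO arrays, 10.75, 10.85 and 10.49 in the Deferasirox arrays and 10.77 and 10.81 in the OICR623 arrays. The arrays of the low level were the lowest of the DMSO, DFO and Deferasirox groups, and treated and DMSO arrays of 1 level lay close together. The RELA difference was 0.00 with DFO (95% interval -0.08 to 0.08), -0.03 with Deferasirox (-0.12 to 0.06) and -0.04 with OICR623 (-0.15 to 0.06). REL, a subunit best known from lymphoid cells, and RELB, the partner of p52, had differences between -0.04 and 0.11.

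None of the 10 measured chemokine and cytokine genes (CXCL1, CXCL2, CXCL3, CXCL8, CXCL10, CCL2, CCL20, IL6, TNF and LTB) was called by limma with any compound. With DFO, Deferasirox and OICR623, 1, 0 and 1 of them had an unadjusted p under 0.05, beside 2891, 3304 and 1963 of all 18404 genes. By mean signal, CXCL10 lay at percentile 1.28 of all genes, CCL20 at 9.55, IL6 at 11 and CXCL2 at 12.3. CXCL3 lay at 23.8, CXCL8 and TNF at 27.4, CCL2 at 27.8, CXCL1 at 34.5 and LTB at 62.8. Without detection calls, a dim gene that did not respond cannot be told from 1 that was not expressed. CXCL8 encodes interleukin-8, which attracts neutrophils. Its signal was 6.74, 5.88, 5.79 and 5.64 in the DMSO arrays, 6.74, 5.90, 5.73 and 6.04 in the DFO arrays, 5.85, 5.90 and 6.03 in the Deferasirox arrays and 6.06 and 6.03 in the OICR623 arrays. DMSO 1 and DFO 1 held the same CXCL8 value, and in the middle level the OICR623 arrays stood above those of DMSO. The CXCL8 difference was 0.28 with OICR623 (95% interval 0.07 to 0.49, adjusted p = 0.29), 0.09 with DFO (-0.07 to 0.25) and 0.14 with Deferasirox (-0.04 to 0.32). CXCL3, a related neutrophil chemokine, had a difference of 0.15 with DFO (0.01 to 0.29, adjusted p = 0.29). CXCL1, CXCL2 and CXCL3 are near-identical genes, and probes of one can pick up transcripts of another. CXCL10, the interferon-induced chemokine, had the widest intervals of the group, with -0.22 (-0.59 to 0.14) with Deferasirox. CCL2, CCL20, IL6, TNF and LTB lay between -0.10 and 0.10 with each compound.

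The 5 measured survival genes were not called with any compound. They were BIRC2, which encodes the ubiquitin ligase cIAP1, BCL2L1, which encodes the apoptosis inhibitor BCL-XL, CFLAR, which encodes the caspase-8 inhibitor FLIP, TRAF1, an adaptor of TNF receptors, and SOD2, the mitochondrial superoxide dismutase. Their differences ran from -0.10 to 0.10. By mean signal, TRAF1 was dim, at percentile 16.8 of all genes, and the others lay at 47.8 or above. CFLAR was the member for which the choice of the transcript cluster mattered. The cluster used had differences of -0.08, 0.00 and 0.02, and its other cluster had 0.21, 0.25 and 0.10 with DFO, Deferasirox and OICR623. The second cluster of LTB had 0.02, 0.01 and 0.18, beside 0.09, 0.03 and 0.08 for the one used.

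ICAM1 (transcript cluster 8025601), the adhesion molecule that leukocytes bind, had the second largest Deferasirox difference of the members. Its signal was 10.67, 7.91, 7.94 and 8.07 in the DMSO arrays, 10.87, 8.10, 8.09 and 8.22 in the DFO arrays, 8.29, 8.32 and 8.52 in the Deferasirox arrays and 8.15 and 7.87 in the OICR623 arrays. The high-level arrays stood more than 2 log2 units above all others. Within the middle and low levels every Deferasirox array lay above every DMSO array, and the OICR623 arrays lay on either side of those of DMSO. ICAM1 rose by 0.40 with Deferasirox (SE 0.06, limma, adjusted p = 0.0024), or 1.32-fold, with 0.38 in the middle level and 0.45 in the low level. The difference was 0.17 with DFO (SE 0.05, adjusted p = 0.13) and 0.09 with OICR623 (SE 0.07, adjusted p = 0.73). With DFO it passed the test when either OICR623 array was left out (adjusted p = 0.021). Without the high-level arrays the Deferasirox difference was 0.40 (adjusted p = 0.0065). With no block it turned to -0.27 (adjusted p = 0.91) and quantile normalization without a block gave -0.08 (0.99). In the middle level alone it was 0.38 (adjusted p = 0.11), and with the replicate number as a second block 0.32 (0.12). The adjusted p with Deferasirox passed the threshold in 18 of 25 alternatives and ran from 2e-04 to 0.99.

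IRF1 (transcript cluster 8114010) was the other member that rose with DFO. Its signal was 9.03, 8.30, 8.26 and 8.26 in the DMSO arrays, 9.19, 8.52, 8.50 and 8.50 in the DFO arrays, 8.34, 8.29 and 8.28 in the Deferasirox arrays and 8.36 and 8.20 in the OICR623 arrays. Each DFO array stood above the DMSO arrays of its level, by 0.16 in the high level and by 0.23 in both the middle and the low level, and the arrays of the other compounds lay close to those of DMSO. IRF1 rose by 0.21 with DFO (SE 0.04, limma, adjusted p = 0.012), or 1.16-fold, and the difference was 0.02 with Deferasirox (95% interval -0.08 to 0.12) and -0.01 with OICR623 (-0.13 to 0.11). Without the high-level arrays it was 0.23 with DFO (adjusted p = 0.028). The call was lost without DMSO 4 (0.21, adjusted p = 0.055) or DFO 4 (0.21, 0.058), in the middle level alone (0.23, 0.23) and with no block (0.21, adjusted p = 1). It passed the threshold in 18 of 26 alternatives, with an adjusted p from 0.0048 to 1. TNFAIP2, a gene induced by TNF, had 0.14 with Deferasirox (0.04 to 0.24, adjusted p = 0.12). CD83, a surface protein of activated dendritic cells, had 0.14 with DFO (-0.01 to 0.30, adjusted p = 0.37).

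**Figure D3:**
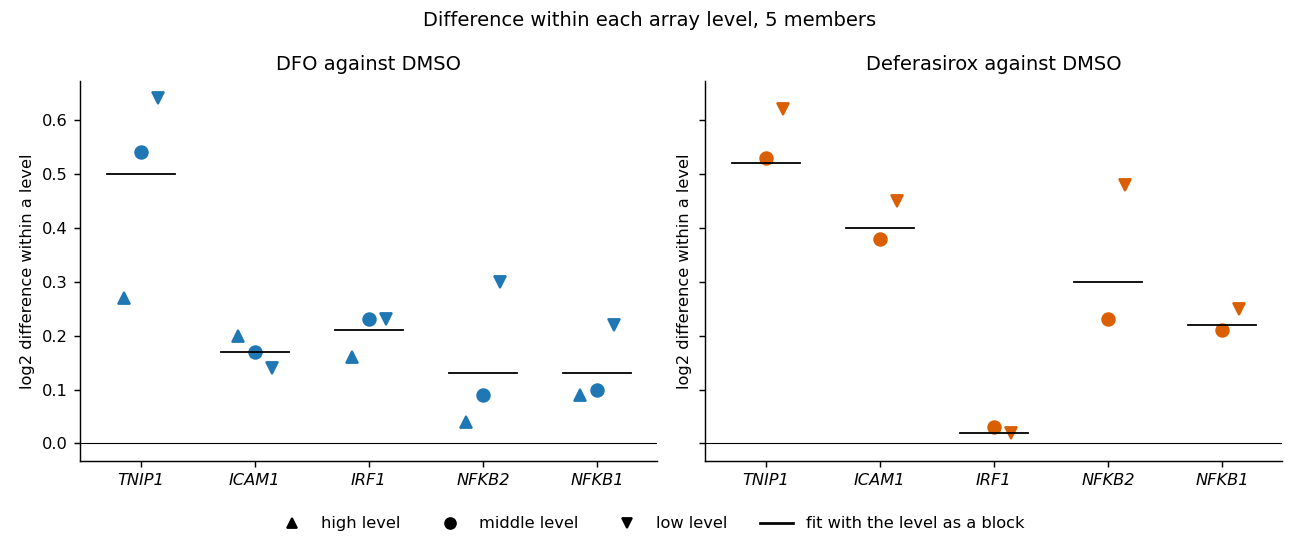
Log2 difference against DMSO within each array level for the 5 members called in a comparison, for DFO (left) and Deferasirox (right). Triangles and circles are the difference of the array means within the high, middle or low level, and lines the value of the blocked fit. From the high to the low level the TNIP1 difference with DFO was 0.27, 0.54 and 0.64, and that of IRF1 with Deferasirox was 0.03 and 0.02 in the middle and low level.

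The high-level pair differed less than the others in general. Over the 847 genes called with DFO, the median absolute difference of DFO from DMSO was 0.22 in the high level, 0.32 in the middle and 0.36 in the low level, and over the 31 members it was 0.03, 0.09 and 0.12.

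The compounds were set against each other over all 31 members and 3 pairs, at 93 tests, with doses that differed as given above. No pair of compounds was given at the same dose, so these values compare the treatments. Limma called 0 members in each pair, and 5 members in Deferasirox against DFO, 2 in OICR623 against DFO and 4 in OICR623 against Deferasirox had an unadjusted p under 0.05. Over all 18404 genes, 1847, 1044 and 1571 had an unadjusted p under 0.05, and 0.0435%, 0.168% and 0.0869% were called. The IRF1 difference of Deferasirox from DFO was -0.19 (95% interval -0.29 to -0.09, limma, adjusted p = 0.19), and its OICR623 value differed from that of DFO by -0.22 (-0.34 to -0.11, adjusted p = 0.28). ICAM1 had 0.24 for Deferasirox against DFO (0.10 to 0.37, adjusted p = 0.21) and -0.31 for OICR623 against Deferasirox (-0.47 to -0.15, adjusted p = 0.19). NFKB2 had -0.23 for OICR623 against Deferasirox (-0.38 to -0.08, adjusted p = 0.33). NFKBIA had -0.19 for OICR623 against DFO (-0.31 to -0.07, adjusted p = 0.54) and -0.18 against Deferasirox (-0.31 to -0.06, adjusted p = 0.36). For TNIP1 the Deferasirox value differed from that of DFO by 0.02 (-0.13 to 0.17), and OICR623 differed by -0.16 from DFO (-0.34 to 0.01) and by -0.18 from Deferasirox (-0.36 to -0.01, adjusted p = 0.55). None of these differences passed the test, so it was not shown that IRF1 responded to DFO alone or ICAM1 and NFKB2 to Deferasirox alone.

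Of 33 measured genes of the pathway upstream of NF-kB (receptors, adaptors, kinases and ubiquitin enzymes, 38 listed), 3 fell (9.09%) and 0 rose with DFO, 2 fell and 1 rose with Deferasirox, and 0 were called by limma with OICR623, with 3 at an unadjusted p under 0.05. Over all genes, 2.72% fell with DFO, 3% fell and 2.83% rose with Deferasirox, and 0.734% were called with OICR623. With OICR623, 1963 of all 18404 genes had an unadjusted p under 0.05. With no block 0 genes of the list were called with any compound. In that fit 0, 1 and 0 had an unadjusted p under 0.05, beside 202, 307 and 104 of all genes. TLR4, the receptor for bacterial lipopolysaccharide, had the largest differences. Its signal was 7.88, 7.19, 6.88 and 6.35 in the DMSO arrays, 7.47, 6.34, 6.07 and 5.72 in the DFO arrays, 6.39, 6.25 and 5.69 in the Deferasirox arrays and 6.59 and 6.20 in the OICR623 arrays. Within each level every treated array lay below the DMSO arrays of that level. The TLR4 signal fell by 0.68 with DFO (SE 0.11, limma, adjusted p = 0.0042) and by 0.65 with Deferasirox (adjusted p = 0.0088), with a difference of -0.57 for OICR623 (adjusted p = 0.13). Without the high-level arrays the values were -0.76 (0.0054), -0.70 (0.0081) and -0.61 (0.089), and without Deferasirox 3 the call with Deferasirox was lost (adjusted p = 0.055). RNF31, the catalytic subunit of the linear ubiquitin ligase that serves TNF receptor signalling, fell by 0.26 with DFO (adjusted p = 0.0057), and by 0.27 without the high-level arrays (adjusted p = 0.018). In the latter fit the RNF31 difference was -0.18 with Deferasirox (limma, adjusted p = 0.084) and -0.23 with OICR623 (0.16). LTBR, the lymphotoxin beta receptor of the non-canonical arm, fell by 0.16 with DFO (adjusted p = 0.024) and by 0.19 with Deferasirox (0.021), and without the high-level arrays the values were -0.20 and -0.20 (0.019 and 0.015). Both LTBR calls were lost when any 1 of 6 arrays was left out, those of DMSO 2, 3 and 4 and DFO 2, 3 and 4 or Deferasirox 1, 2 and 3 (adjusted p = 0.071 to 0.11 and 0.059 to 0.10), and with the replicate number as a block beside the level (0.068 and 0.23). TAB3, an adaptor of the kinase TAK1, rose by 0.17 with Deferasirox (adjusted p = 0.049), with 0.16 without the high-level arrays (0.093). Its call was lost on leaving out any 1 of the 11 arrays of DMSO, DFO and Deferasirox (adjusted p = 0.056 to 0.19).

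Of 32 measured genes on a second list of NF-kB targets (33 listed), 5 rose with DFO (15.6%), 7 with Deferasirox (21.9%) and 1 with OICR623 (3.12%), and 0 fell. Over all genes, 1.89%, 2.83% and 0.337% rose. The list was chosen with earlier results of these data known. With no block limma called 0 of its genes with any compound. In that fit 1, 0 and 0 had an unadjusted p under 0.05, beside 202, 307 and 104 of all 18404 genes. LIF, a cytokine of the interleukin-6 family, was the gene called with every compound. Its signal was 9.68, 8.81, 8.72 and 8.87 in the DMSO arrays, 10.14, 9.45, 9.28 and 9.37 in the DFO arrays, 9.45, 9.35 and 9.39 in the Deferasirox arrays and 9.45 and 9.28 in the OICR623 arrays. Outside the high level all treated arrays lay above all DMSO arrays. LIF rose by 0.54 with DFO (SE 0.06, limma, adjusted p = 0.00021), by 0.58 with Deferasirox (0.0003) and by 0.56 with OICR623 (0.0053), and without the high-level arrays by 0.57, 0.59 and 0.57 (0.00095, 0.00063 and 0.0074). The OICR623 call was lost without OICR623 1 (adjusted p = 0.082).

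IER3, a stress-induced early response gene, rose by 0.28 with DFO (SE 0.04, limma, adjusted p = 0.003) and by 0.33 with Deferasirox (SE 0.05, adjusted p = 0.0017), with 0.19 for OICR623 (adjusted p = 0.18). TNFAIP8, a TNF-induced survival gene, rose by 0.32 and 0.41 (adjusted p = 0.015 and 0.0064), and PLAUR, the urokinase receptor, by 0.25 and 0.32 (0.031 and 0.013). IL15RA, the interleukin-15 receptor alpha chain, rose by 0.19 with DFO (adjusted p = 0.04). PLAU, the protease urokinase, rose by 0.30 with Deferasirox (adjusted p = 0.019) and the transcription factor KLF6 by 0.24 (0.013). For the other compounds, the fit without the high-level arrays gave IL15RA 0.15 with Deferasirox and 0.13 with OICR623. It gave PLAU 0.08 with DFO and 0.14 with OICR623, and KLF6 0.09 with each of these, and none of these values was called. Without the high-level arrays the calls of IER3 (adjusted p = 0.0032 and 0.0014), and of TNFAIP8, PLAUR, PLAU and KLF6 with Deferasirox (0.014, 0.022, 0.04 and 0.0058), were made again. Those of TNFAIP8, PLAUR and IL15RA with DFO were lost (0.051, 0.065 and 0.084). Leaving out DMSO 1 or DFO 1, which is that same fit, gave 0.051 for TNFAIP8 with DFO. Leaving out DMSO 4 also ended the TNFAIP8 call with DFO (0.062), and leaving out Deferasirox 3 that with Deferasirox (0.052). The PLAUR call ended without any 1 of DMSO 1, 2 and 4 and DFO 1, 3 and 4 with DFO (0.065 to 0.14), and without DMSO 4, Deferasirox 2 or Deferasirox 3 with Deferasirox (0.059 to 0.086). The same 3 arrays ended the KLF6 call (0.054 to 0.063), while DMSO 2, DMSO 4, Deferasirox 1 and Deferasirox 3 ended that of PLAU (0.067 to 0.098). The IL15RA call ended without any 1 of 10 arrays, all of DFO and Deferasirox and DMSO 1, 2 and 4 (0.055 to 0.15). With the replicate number as a block beside the level, the call of IL15RA with DFO (0.062) and those of IER3, TNFAIP8, KLF6 and PLAU with Deferasirox (0.08, 0.17, 0.16 and 0.20) were lost.

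**Figure D4:**
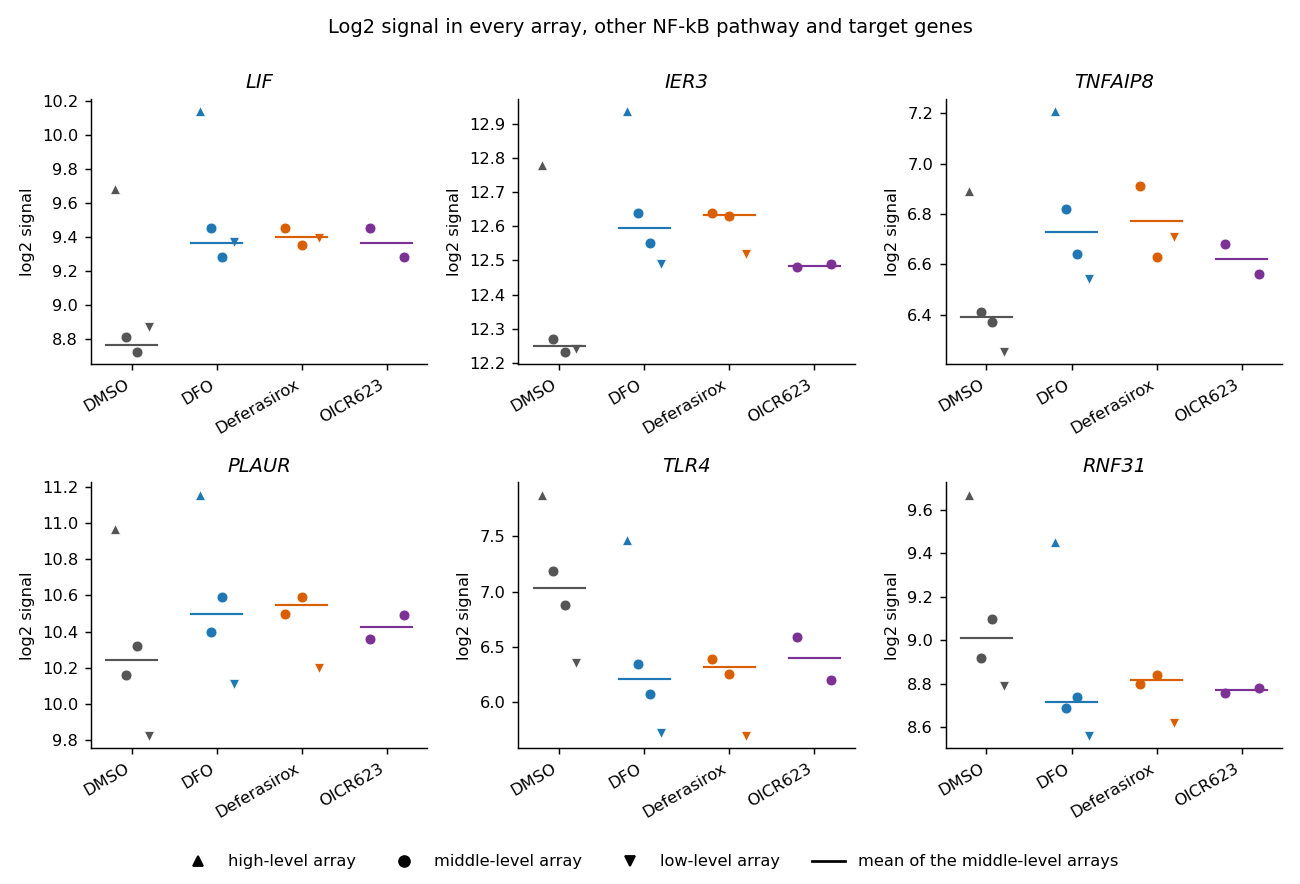
Log2 signal in every array of 6 genes from the lists of upstream pathway genes and further NF-kB targets, by treatment. Symbols mark the level of the array and lines the mean of the 2 middle-level arrays of each group. LIF lies at 8.72 to 8.87 in the DMSO arrays outside the high level and at 9.28 to 9.45 in the treated ones, and TLR4 lies below DMSO within each level.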

How the data were processed

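RNA of SW480 cells was measured on 13 arrays. The deposited table gives a log2 signal for each transcript cluster in each array, as the range of its values shows. GCRMA and limma are named, without versions or roles, per the submitters' processing notes, and the genome build is not given in the sources used here. Of 32321 clusters, 19158 had 1 gene symbol, 1388 several and 11775 none. The cluster with the highest mean was kept for the 637 genes with several, which left 18404 genes. Dim genes were kept, and 0 symbols had to be updated.

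Differences were fitted with limma 3.58.1 in R 4.3.3 (lmFit and eBayes over all 13 arrays, 1 mean per group), with the array-median level as a block and new levels where neighbouring medians lay over 0.05 apart. Calls were made at an adjusted p under 0.05 (Benjamini-Hochberg, across the whole table for each comparison). The procedure was tested on simulated data with independent noise in each array. Those data lacked the identical values of the high-level pair, so the test speaks for the code alone. Fold values are 2 to the power of the log2 difference. The number of arrays limits the precision, and p-values measure the spread among these samples.

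The members, the lists and the levels were chosen with earlier results of these data known. Values in every array are given for each member called against DMSO and for NFKB1, RELA, NFKBIA, TNFAIP3 and CXCL8 whatever they do. Of the 2 further lists, called genes are named, at most 6 per list and comparison. Promoters were read from a RefSeq table (GRCh38.p14) with Python 3.11.15.

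Pairing by replicate number was checked by subtracting each group's mean and correlating, across genes, the arrays that carry the same number. For DFO with DMSO r was 0.945, 0.662, 0.738 and 0.788 for numbers 1 to 4, and the DFO and DMSO arrays also share their level number by number. For Deferasirox with DMSO it was -0.0575, 0.333 and -0.324, and for OICR623 with DMSO 0.291 and -0.00858. By number, Deferasirox 1 and 3 and OICR623 1 were set beside DMSO arrays of another level. These values therefore cannot show whether those arrays were paired. The main fit has no term for the replicate number, which was used as a block in alternatives alone. Within the middle level, the differences between numbers 2 and 3 in the DFO and in the DMSO arrays correlated at 0.256 across genes. The alternatives were no block, a replicate block with or in place of the level, median centring, quantile normalization, the middle level alone, the groups compared alone, means over clusters, a filter on dim genes (the lowest 25%), moderation with a trend, and each array left out. Fits without the high-level arrays and the replicate block on DFO and DMSO alone were added after seeing the data. Leaving out DMSO 1 or DFO 1 gave the same fit as leaving out both, because the level block takes up the array that remains. For comparisons without OICR623, leaving out either OICR623 array was likewise 1 fit. The tallies of alternatives count these fits separately.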

Additional observations from a re-analysis of the deposited data

Results flagged for a closer look

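In the groups of 4 arrays, 9 members were checked for an array that stood apart from the others. Chance gives this in about 1 of 20 groups whose arrays are alike, but these groups mix arrays of 3 levels. This was so for 5 of the 9 members in the DMSO arrays and 3 of 9 in the DFO arrays, each time with a gap to the next array that exceeded Dixon's critical value for 4 samples. IRF1 was 9.03 in DMSO 1 and 9.19 in DFO 1, where the next arrays were at 8.30 and 8.52. ICAM1 was 10.67 in DMSO 1 and 10.87 in DFO 1, with the next arrays at 8.07 and 8.22. NFKB2 was 9.44 in DMSO 1, with the next array at 8.45. NFKBIA was 10.59 in DMSO 1 and 10.63 in DFO 1, with the next arrays at 9.74 and 9.86. RELA was 10.50 in DMSO 4, the low-level array, with the next array at 10.80. Apart from RELA, the arrays named are those of the high level. The levels were known beforehand, the 9 members share the same arrays, and the share over all genes was not counted. The counts are therefore not read as a result about the members.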

How the results depend on the processing

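The 2, 4 and 0 members called with DFO, Deferasirox and OICR623 were 0, 0 and 0 with no block, with the replicate block in place of the level and with median centring. They were 1, 1 and 0 with quantile normalization, in the middle level alone and with no block and no high-level arrays. Deferasirox had 1 with the replicate block beside the level and 2 with the groups compared alone. OICR623 had 1 with the intensity trend and 1 without the high-level arrays. Leaving out 1 array gave 1 to 3, 2 to 4 and 0 to 1.

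The 847, 1074 and 135 genes called in all were 45, 43 and 7 with no block, 78, 127 and 10 with the replicate block in place of the level, 154, 170 and 19 with centring, 161, 185 and 25 with quantile normalization, 274, 326 and 81 in the middle level, and 198, 238 and 41 with no block and no high-level arrays. The replicate block beside the level gave 400 and 36 for Deferasirox and OICR623, and the groups compared alone 656 and 32. OICR623 had 203 without dim genes and 336 with the trend. With 1 array left out the counts were 494 to 846, 546 to 1066 and 33 to 173. The median member difference turned to -0.19 (Deferasirox) and -0.16 (OICR623) with no block, to -0.30 and -0.34 with the replicate block in place of the level, and for OICR623 to -0.06 with centring and -0.04 with quantile normalization.

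Some differences changed sign. With no block, values for Deferasirox were IRF1 -0.16, ICAM1 -0.27, NFKBIA -0.14, TNFAIP3 -0.11, CXCL8 -0.09 and TAB3 -0.06, and for OICR623 ICAM1 -0.64, NFKB2 -0.21, RELA 0.05 and TNFAIP3 -0.26. With the replicate block in place of the level, Deferasirox had IRF1 -0.22, ICAM1 -0.47, NFKB1 -0.10, NFKB2 -0.01, NFKBIA -0.21, TNFAIP3 -0.10, CXCL8 -0.16, TAB3 -0.23 and PLAUR -0.05. OICR623 had TNIP1 -0.07, ICAM1 -1.12, NFKB1 -0.17, NFKB2 -0.37, TNFAIP3 -0.30 and CXCL8 -0.15. The replicate block beside the level ended 12 named calls, among them LIF with OICR623 (0.44, limma, adjusted p = 0.079). It gave IRF1 -0.04 and RELA 0.01 for Deferasirox. In both fits with the replicate number, Deferasirox 1 and 3 and OICR623 1 share a block with arrays of other levels. Whether these changes come from that numbering was not tested. Centring and quantile normalization gave ICAM1 -0.11 and -0.08 and RELA 0.11 and 0.14 for Deferasirox, ICAM1 -0.54 and -0.49, NFKB2 -0.11 and -0.06, RELA 0.15 and 0.17 and TNFAIP3 -0.16 and -0.16 for OICR623, and RELA 0.02 and 0.01 for DFO. ICAM1 in Deferasirox against DFO was -0.44 with no block, -0.64 with the replicate block in place of the level, -0.30 with centring and -0.26 with quantile normalization. Without the high-level arrays RELA with DFO was 0.00, and with no block beside this RELA with OICR623 was 0.07, IRF1 0.00 and TNFAIP3 -0.05. CXCL8 with DFO was -0.02 in the middle level. With 1 array left out, RELA was -0.01 to 0.01 and CXCL8 -0.01 to 0.13 with DFO, RELA -0.05 to 0.00 with Deferasirox, and IRF1 -0.09 to 0.07 and ICAM1 -0.04 to 0.23 with OICR623. Deferasirox and OICR623 had no high-level array. With no block and no high-level arrays, Deferasirox had IRF1 0.03, ICAM1 0.40, NFKBIA 0.08, TNFAIP3 0.09, CXCL8 0.15 and TAB3 0.16. In that fit OICR623 had ICAM1 0.04 and NFKB2 0.04, while RELA and TNFAIP3, as given above, kept the changed sign. The cause was not tested. Of 1317 values of 52 named differences, 1044 kept direction and side of the threshold, 207 lost the call, 7 gained it and 59 changed sign. Arrays without detection calls leave dim signals without a bound.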
